A study of Caenorhabditis elegans with 25 samples.

Results

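P granules are RNA-protein granules that sit at the outer face of germ cell nuclei in Caenorhabditis elegans and pass to the germline founder cells of the embryo. The 10 genes described here encode proteins of these granules and were taken by identifier from the 45461 gene identifiers counted in each library. No expression rule picked them, but earlier results of these data were known when they were chosen. They comprise the self-associating scaffold genes pgl-1 (ZK381.4, chromosome IV) and pgl-3 (C18G1.4, V), and the 4 Vasa-related DEAD-box helicase genes glh-1 (T21G5.3), glh-2 (C55B7.1), glh-3 (B0414.6) and glh-4 (T12F5.3), all on chromosome I. The set also holds deps-1 (Y65B4BL.2, I), whose product is needed for normal PGL-1 accumulation, and the genes for intrinsically disordered MEG proteins, meg-1 (K02B9.1), meg-3 (F52D2.4) and meg-4 (C36C9.1), all on the X chromosome.

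PGL proteins form the body of the granule, GLH helicases help hold it at the nuclear envelope, and both are present through most of germline development in either sex. MEG-1, MEG-3 and MEG-4 act in the early embryo, where MEG-3 and MEG-4 coat the PGL phase and let it segregate with the germ lineage, so their RNAs are supplied by the mother. Granules of this kind are lost as sperm mature, whereas oocytes hand them to the embryo. P granules also house Argonaute proteins and small RNA pathways, and their loss leads to sterility.

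RNA was measured in 25 libraries of 9 groups from day-1 adults. The male groups were 2 libraries of N2 (the wild-type strain), 4 of him-8(e1489), a mutant that segregates many XO males, and 3 of mes-3(bn35) males that had mes-3 product from the mother but made none themselves. The XX groups were 3 libraries of N2 oogenic germlines, grown at 20 °C like all male and sperm groups, and 3 of fem-2(b245ts), a strain raised at 15 °C and moved to 20 °C for 24 h from the L4 stage, which feminizes it. The him-8 males and fem-2 oogenic germlines set side by side below therefore also differ in genotype and growth temperature. Mature sperm came from mes-3 and from him-8 males, with 3 libraries each. The last 2 groups, with 2 libraries each, were germlines of mes-3; fem-2 double mutant offspring kept at 15 °C, whose mothers carried mes-3 function while their fathers lacked it (M+P-) or had it over a balancer (M+P+). Each germline library pooled distal gonad arms severed near the end of pachytene, so tissue beyond that bend was not sampled. The study calls the replicates biological without saying what set them apart, and p-values measure the spread between these libraries.

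The libraries held between 1078195 and 18617543 reads assigned to genes. The spermatogenesis markers summed to between 3971.5 and 8002 CPM, the gene's share of all gene counts in a library scaled to 1e6, in the male germline and sperm libraries and to at most 9.96 CPM in N2 and fem-2 oogenic libraries. The oogenesis markers summed to at least 9687 CPM in the latter and to at most 1029 CPM in male germlines and sperm. Muscle markers reached 2017 to 5256 CPM in the sperm groups, 3119.7 CPM in him-8 male replicate 2 and 1451.7 CPM in N2 male replicate 1, against 26.5 to 408 CPM in the other male and oogenic germlines. The mes-3 RNA ranged from 26.9 to 40.2 CPM in mes-3 males and from 12.98 to 30.8 CPM in N2 and him-8 males, so RNA level alone did not separate the mutant from its controls. The libraries carry 7 tags in their names, whose meaning is not given, written here as tags A to G. In bulk tissue, fewer cells of a type and less RNA per cell cannot be told apart.

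RPKM, which divides CPM by transcript length in kilobases, allows levels of different genes to be set side by side. Summed over the 10 genes, RPKM was 1083 ± 35.5 (SD, n = 3) in N2 oogenic and 1078 ± 26.2 (n = 3) in fem-2 oogenic germlines. The sum was 553 ± 88.7 (n = 2) in N2 males, 638 ± 107 (n = 4) in him-8 males and 654 ± 42.4 (n = 3) in mes-3 males. It was lowest in sperm, at 226 ± 35.0 in him-8 and 369 ± 36.3 in mes-3 (n = 3 each). The oogenic libraries lay between 1048 and 1122, above every male germline library, whose highest value was 728.7. These sums are scaled to library totals. On that scale the median log2 fold change (male minus oogenic) of all genes tested was -0.70 in N2. It was -0.45 in him-8 against fem-2. For sperm against male germline the median was -0.42 in him-8 and -0.26 in mes-3.

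The order of the genes also differed between the sexes. In N2 oogenic germlines, pgl-1 led with a mean of 238 RPKM, and its libraries did not overlap those of deps-1, at 194 RPKM. The neighbours deps-1, pgl-3 (180 RPKM) and glh-1 (163 RPKM) overlapped one another in turn, as did meg-1 (73.1), glh-2 (68.7) and glh-4 (65.7 RPKM). The glh-3 libraries (49.3 RPKM) overlapped those of glh-2 through its replicate 3 but not those of glh-4, while meg-3 (29.9) and meg-4 (21.3 RPKM) were each separate. In N2 males, pgl-3 (137 RPKM) and glh-1 (131 RPKM) led and overlapped, followed by pgl-1 at 102, deps-1 at 81.8 and glh-4 at 64.2 RPKM. The genes glh-3 (18.6 RPKM) and glh-2 (18.3 RPKM) were the lowest of the autosomal members, and him-8 males had the same order of these 7 genes. In him-8 sperm pgl-1 (63.3 RPKM) and pgl-3 (61.3 RPKM) overlapped at the top, and glh-2 was again the lowest autosomal member, at 4.06 RPKM.

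**Figure D1:**
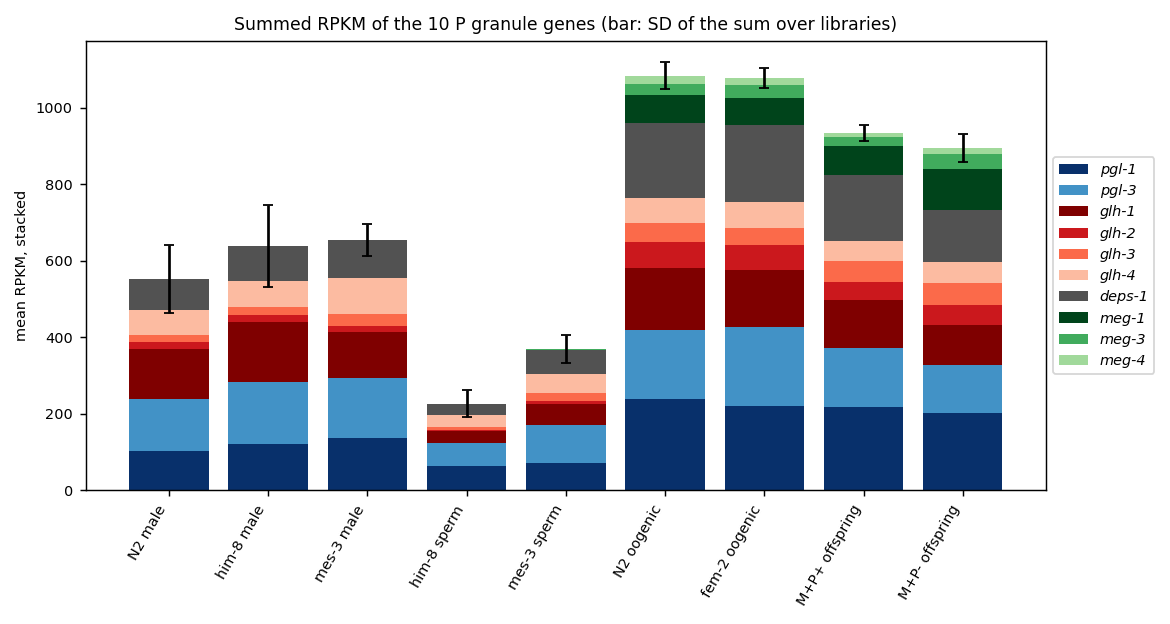
Stacked mean RPKM of the 10 P granule genes in each of the 9 groups, with the SD of the summed RPKM over libraries as a bar. The oogenic groups reach 1083 and 1078 RPKM, male germlines 553 to 654 RPKM and sperm 226 and 369 RPKM, and the green MEG segments are visible only in oogenic and offspring germlines. RPKM is scaled to library totals, and on that scale the median gene tested was also lower in males (log2 -0.70 in N2, -0.45 in him-8 against fem-2).

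Male and oogenic germlines were compared to see how the gene set differs between a germline making sperm and one making oocytes. The widest contrast was in the MEG genes, which had at least 48.6 CPM in every N2 and fem-2 oogenic library and at most 1.64 CPM in N2 and him-8 males. Among the 7 autosomal members the changes ran in both directions: a gene is said to be called when its Benjamini-Hochberg adjusted p in edgeR's quasi-likelihood test, taken over all genes tested, was under 0.05. In N2, pgl-3 and glh-4 were called higher in males, glh-2 and glh-3 were called lower, and 3 were not called. Of the 8574 genes tested, 60.3% were called in that comparison, 38.3% higher and 22% lower in males. In him-8 males against fem-2 oogenic germlines, glh-1 and glh-4 were called higher, and glh-2, glh-3 and deps-1 were called lower. There 64.2% of 9244 genes were called, 33.8% higher and 30.4% lower, so calls were common among all genes in either comparison. The CPM of the groups did not overlap for 83.5% of genes in N2 and for 77.7% in the other pair.

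These directions depend on how libraries are scaled. The values in the text are gene counts over the library total, whereas the test uses TMM factors, which raise male values relative to oogenic ones. Without the factors, the fold changes of all genes shifted by a median of -0.92 (log2) in the N2 comparison and by -0.48 in the him-8 and fem-2 comparison. The calls over all genes moved from 3287 higher and 1886 lower to 2312 higher and 4242 lower in N2, and from 3125 and 2811 to 2561 and 4272 in the other pair. With total counts, the same 4 autosomal members, pgl-1, glh-2, glh-3 and deps-1, were called lower in males in both comparisons, and none was called higher.

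The scaffold gene pgl-1 gave 215 and 294 CPM in the 2 N2 male libraries and 575, 601 and 610 CPM in the 3 N2 oogenic libraries. In him-8 males it gave 273, 218, 352 and 362 CPM, and in fem-2 oogenic germlines 546, 552 and 549 CPM. Every oogenic library was above every male library of N2 and him-8. The log2 fold change (male minus oogenic) was -0.31 ± 0.16 (SE) in N2 and -0.38 ± 0.15 in the other pair, with adjusted p = 0.126 and 0.0515 in edgeR's test, and it was called with total counts, at -1.22 and -0.86. In the other pair it was also called with no count filter (-0.58) and without him-8 male replicate 3 or 4 (-0.44 each).

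Its paralog pgl-3 gave 261 and 369 CPM in N2 males and 391, 408 and 443 CPM in N2 oogenic germlines, without overlap. In him-8 males it gave 390, 276, 389 and 449 CPM, within or below the 494, 492 and 442 CPM of fem-2 oogenic germlines. The fold change was 0.52 ± 0.16 in N2 (adjusted p = 0.0219, edgeR) and 0.14 ± 0.13 in the other pair (adjusted p = 0.376), and its sign turned with total counts in both, to -0.39 and -0.34. The N2 call was lost without N2 male replicate 2 (log2 0.35), N2 oogenic replicate 1 (0.32) or N2 oogenic replicate 2 (0.49), with no count filter (0.44) and with all 25 libraries in 1 fit (0.44).

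The helicase gene glh-1, whose product is needed for normal P granule structure, differed little in CPM. It gave 343 and 327 CPM in N2 males and 495, 463 and 293 CPM in N2 oogenic germlines, where replicate 3 lay well below the other libraries. The him-8 male values of 487, 315, 369 and 413 CPM spanned the fem-2 oogenic values of 404, 388 and 354 CPM. The fold change was 0.61 ± 0.26 in N2 (adjusted p = 0.0698, edgeR) and 0.54 ± 0.14 in him-8 against fem-2 (adjusted p = 0.0090), and with total counts it was -0.31 and 0.05, neither of them called. The N2 change was called with DESeq2 (0.65), with no count filter (0.54), without N2 male replicate 2 (0.73) and in both fits that pooled the strains (0.71 and 0.88), and with no count filter the him-8 change was not called (0.34).

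The close relative glh-2 was lower in males under every scaling used. It gave 57.1 and 57.4 CPM in N2 males against 248, 241 and 155 CPM in N2 oogenic germlines. In him-8 males it gave 73.8, 42.7, 57.1 and 69.1 CPM against 217, 203 and 193 CPM in fem-2 oogenic germlines. The fold change was -0.97 ± 0.25 in N2 (adjusted p = 0.0109, edgeR) and -1.26 ± 0.16 in the other pair (adjusted p = 0.00012). It was called in all 13 refits of each, with fold changes from -1.89 to -0.74 and from -1.74 to -1.03. Under a minimum absolute log2 fold change of 1, the N2 change was not called. N2 oogenic replicate 3, which was low for glh-1, was also the lowest of its group for glh-2.

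The germline helicase gene glh-3 gave 44.1 and 48.8 CPM in N2 males and 128, 123 and 119 CPM in N2 oogenic germlines. In him-8 males it gave 52.7, 45.96, 54.9 and 58.2 CPM against 113, 111 and 107 CPM in fem-2 oogenic germlines. All male libraries were below all oogenic libraries. The fold change was -0.48 ± 0.17 in N2 (adjusted p = 0.0432, edgeR), a call that was lost with any of the 5 libraries left out (-0.61 to -0.47), with DESeq2 (-0.44), RLE factors (-0.45) and all 25 libraries in 1 fit (-0.56), and with the library tag as a term (-0.35). It was -0.57 ± 0.10 in the other pair (adjusted p = 0.00135), called with each library left out in turn but not with all 25 libraries in 1 fit (-0.33).

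The remaining helicase gene, glh-4, was at nearly the same CPM in either sex. It gave 211 and 281 CPM in N2 males and 262, 261 and 233 CPM in N2 oogenic germlines. In him-8 males it gave 273, 194, 255 and 320 CPM, around the 268, 272 and 242 CPM of fem-2 oogenic germlines. With TMM factors it was called higher in males, by 0.89 ± 0.16 in N2 (adjusted p = 0.00152, edgeR) and by 0.48 ± 0.13 in the other pair (adjusted p = 0.0125), but with total counts the values were -0.03, a change of sign, and 0.0020, and neither was called. The second call was also lost without fem-2 oogenic replicate 3 (0.44), with no count filter (0.29) and with the replicate number as a block (0.41).

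DEPS-1 localizes to P granules and promotes the accumulation of glh-1 RNA and of PGL-1, and the CPM of its gene was lower in males. The gene gave 134 and 200 CPM in N2 males and 385, 353 and 452 CPM in N2 oogenic germlines. In him-8 males it gave 199, 145, 193 and 200 CPM against 425, 419 and 395 CPM in fem-2 oogenic germlines. The groups did not overlap, as was the case for 83.5% of all genes in N2 and 77.7% in the other pair. The fold change was -0.34 ± 0.18 in N2, which was not called (adjusted p = 0.144, edgeR), and -0.67 ± 0.11 in the other pair (adjusted p = 0.00058), and with total counts both were called, at -1.25 and -1.16. With all 25 libraries in 1 fit the second was not called (-0.44). In the Ensembl annotation, exons of deps-1 overlap those of 1 gene on the other strand, and as it is not given whether counting used strand, reads of that overlap cannot be told apart.

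**Figure D2:**
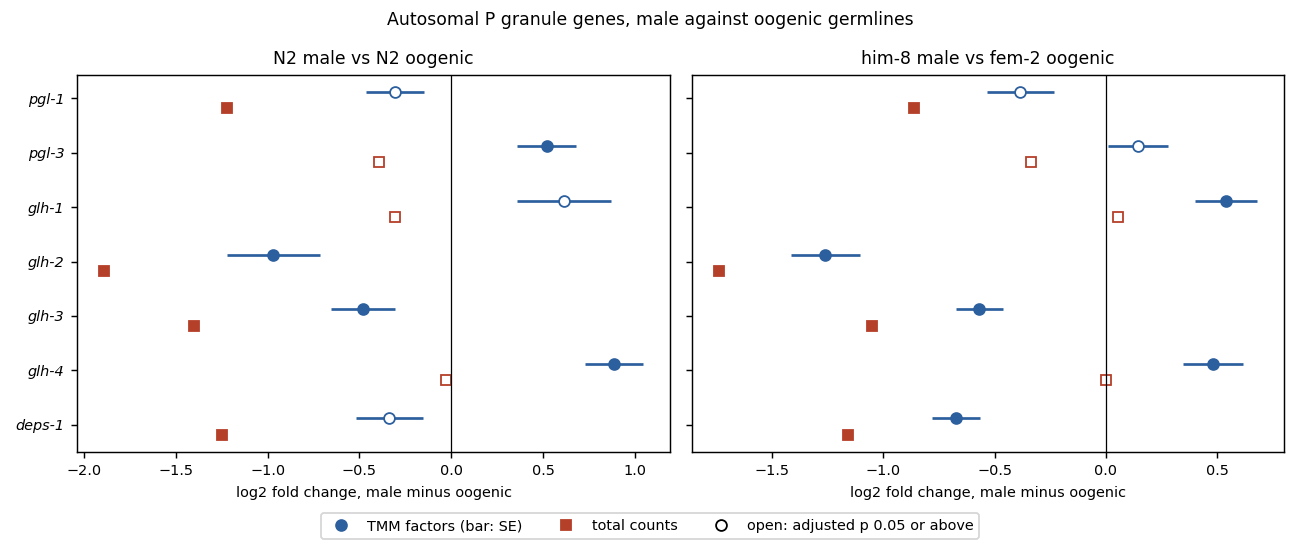
Log2 fold change (male minus oogenic) of the 7 autosomal members with TMM factors (circles, bars are SE) and with total counts (squares), for N2 on the left and him-8 against fem-2 on the right, with open symbols for adjusted p of 0.05 or above. The squares lie to the left of the circles throughout, pgl-1, glh-2, glh-3 and deps-1 are below 0 under both, and glh-4 moves from 0.89 to -0.03 in N2.

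The MEG genes were nearly silent in male germlines. In the oogenic libraries meg-1, whose product acts in P granule assembly in the embryo, gave 199, 147 and 172 CPM in N2 and 154, 162 and 187 CPM in fem-2. In N2 males it had 0 and 4 counts, and in him-8 males 0, 0, 1 and 2 counts. Summed over the 4 him-8 libraries, this was 0.202 CPM (95% exact Poisson interval 0.0417 to 0.592, counting error only), 828-fold below the fem-2 mean (interval 283 to 4017). All male libraries lay far below all oogenic libraries.

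The granule coat gene meg-3 gave 82.6, 83.5 and 83.0 CPM in N2 oogenic and 83.7, 85.2 and 97.3 CPM in fem-2 oogenic germlines. It had 0 counts in both N2 male libraries, at least 112-fold lower by the 95% exact Poisson limit (138-fold at a floor of 3 counts over the group). In him-8 males it had 2, 0, 4 and 2 counts, 164-fold lower (interval 83.4 to 380.7). Its redundant partner meg-4 gave 71.4, 50.6 and 49.3 CPM in N2 oogenic and 48.6, 49.5 and 62.4 CPM in fem-2 oogenic germlines. It had 0 counts in both N2 male libraries, at least 77.1-fold lower by the same limit (94.7-fold at the same floor). In him-8 males it had 0, 0, 0 and 2 counts, 397-fold lower (interval 110 to 3274). These 3 genes passed the count filter only through the oogenic libraries, so their calls are not counted as support. Of the X-linked genes tested, 60.8% were called lower in males in N2 and 69.2% in him-8 against fem-2, while for autosomal genes the shares were 19.1% and 27.3%.

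**Figure D3:**
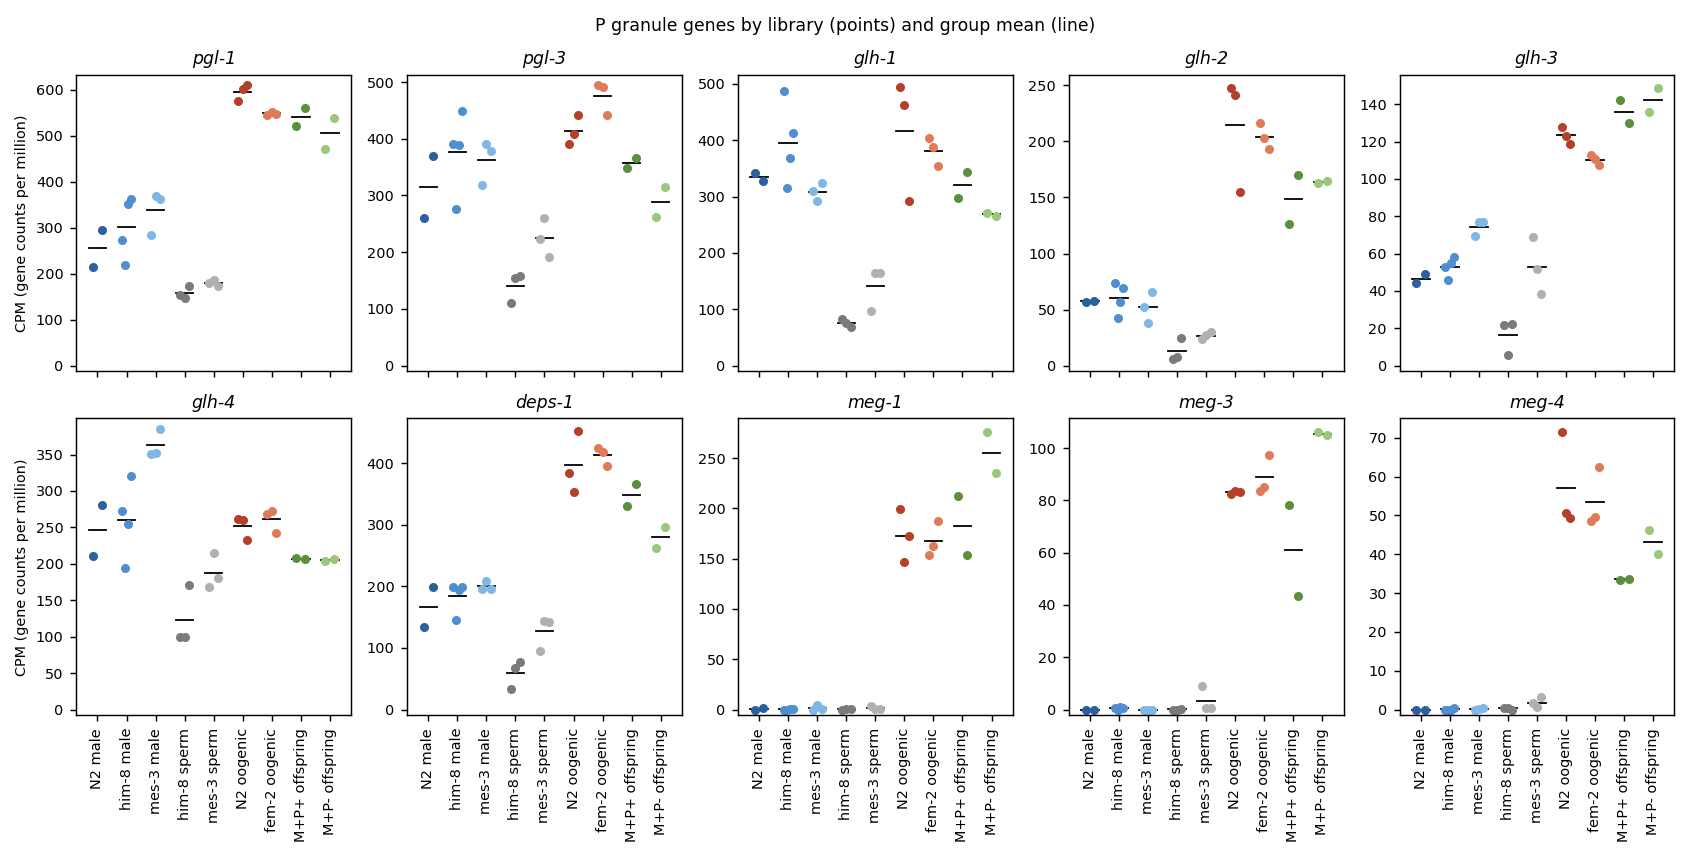
CPM of each P granule gene in every library (points) with group means (lines), from male germlines (blue) and sperm (grey) to oogenic (red) and offspring germlines (green). Male values of glh-2, glh-3, pgl-1 and deps-1 lie below all N2 and fem-2 oogenic values, the MEG genes are near 0 in males and sperm, and glh-4 is similar in N2, him-8 and oogenic germlines.

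Because directions within the set turned with the scaling, ratios of related genes within each library, which no scaling changes, were taken after seeing the data. The ratio of glh-2 to glh-1 RPKM was 0.111 to 0.144 in the 6 N2 and him-8 male libraries and 0.410 to 0.447 in the 6 N2 and fem-2 oogenic libraries. The male ratio was 0.301 times the oogenic one. The ratio of pgl-1 to pgl-3 was 0.643 to 0.832 in the male libraries and 1.02 to 1.36 in the oogenic libraries. It was 0.622 times as high in males. Within each pair of strains the groups also did not overlap. As the ratios were picked with the values known, they are given as a description, with no test. Within tag A, which holds both sexes, the glh-2 to glh-1 ratio was 0.144 in N2 male replicate 2 against 0.434 in N2 oogenic replicate 3 and 0.447 in fem-2 oogenic replicate 3. The pgl-1 to pgl-3 ratio in the same libraries was 0.734 against 1.27 and 1.14. The glh-1 and glh-2 genes are related in sequence, and how reads that match both were assigned is not given, so their absolute levels are uncertain.

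**Figure D4:**
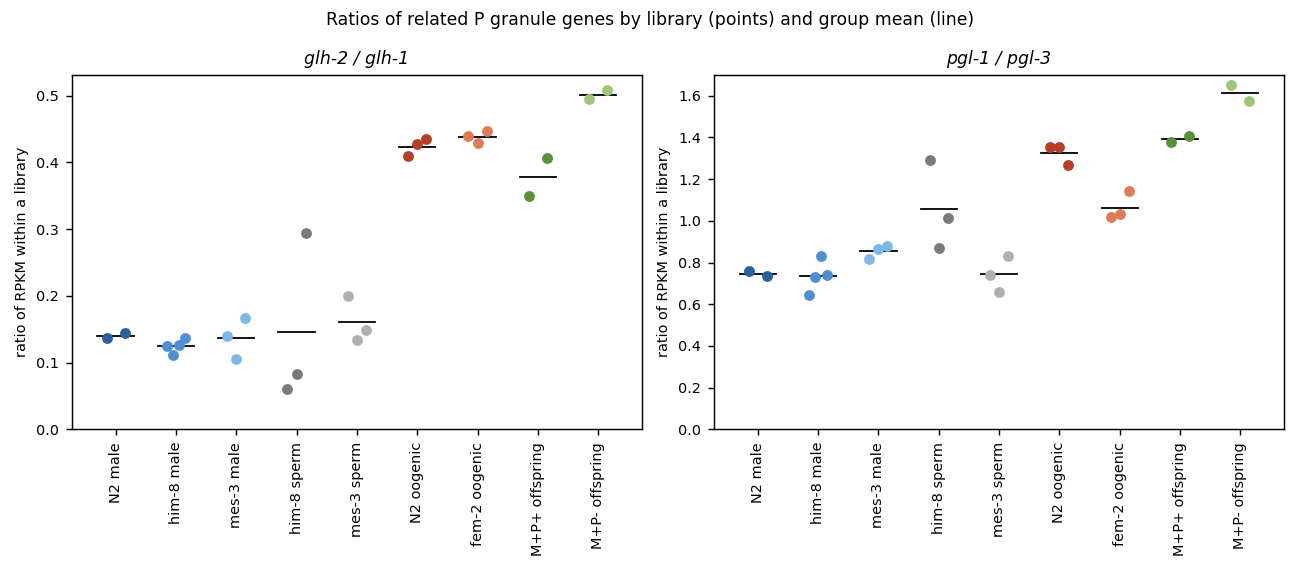
Ratio of glh-2 to glh-1 RPKM (left) and of pgl-1 to pgl-3 RPKM (right) in every library (points), with group means (lines). The N2 and him-8 male libraries lie at 0.111 to 0.144 and 0.643 to 0.832, below the N2 and fem-2 oogenic libraries at 0.410 to 0.447 and 1.02 to 1.36.

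In N2 and in him-8 males, the library richest in muscle RNA was low for most of the autosomal P granule genes. In him-8 males, replicate 2 had the lowest CPM of the 4 libraries for all 7 autosomal members, and its muscle marker sum was 3119.7 CPM against 110 to 160 CPM in the others. In N2 males, replicate 1 was the lower for pgl-1, pgl-3, glh-2, glh-3, glh-4 and deps-1, with muscle markers at 1451.7 CPM against 408 CPM. It was the higher for glh-1, at 343 against 327 CPM. Without him-8 male replicate 2, the changes against fem-2 oogenic germlines were 0.37 for pgl-3, which was then called (adjusted p = 0.0040, edgeR), 0.74 for glh-1, -1.03 for glh-2 and -0.47 for deps-1. The part of muscle RNA in these results was not tested. A fit of all 6 male and 6 oogenic libraries with the library tag as a term, chosen after seeing the data, gave -0.74 for glh-2, 0.88 for glh-1, 1.10 for glh-4, 0.60 for pgl-3 and -0.35 for glh-3. Only tag A holds both sexes, so these values rest on the contrast of 1 male and 2 oogenic libraries, with the spread taken from the others.

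Genes that work beside P granules were read from fixed lists. Of 14 germ granule partners, 3 were called higher and 7 lower in N2 males, where 38.3% of all genes were higher and 22% lower. Their median log2 fold change was -0.54 against 0.23 for all genes tested. In him-8 against fem-2, 1 was higher and 7 were lower, where 33.8% of all genes were higher and 30.4% lower. The median there was -0.45 against 0.03. With total counts 1 was higher and 11 were lower in N2 and 1 and 9 in the other pair, with medians of -1.45 and -0.94 against -0.70 and -0.45 for all genes. Of all genes, 4242 of 8574 were then called lower in N2 and 4272 of 9244 in the other pair. The X-linked meg-2, which passed the count filter only through the oogenic libraries, went from 35.4 to 0.41 CPM in N2. Its calls are among those counted lower in both comparisons but are not support. Called lower were also cgh-1, a DEAD-box helicase of RNA granules, at 569 against 4039 CPM (-1.91 ± 0.19), and car-1, which encodes an Sm-like partner of CGH-1, at 326 against 2212 CPM (-1.84 ± 0.27). The gene ife-1, for an eIF4E that binds PGL-1, was higher in N2 males, at 606 against 276 CPM (2.06 ± 0.16).

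Of 7 Argonaute genes, 4 were called higher and 1 lower in N2 males, and 2 higher and 2 lower in him-8 against fem-2, where the shares of all genes were those given above, 38.3% and 22% in N2 and 33.8% and 30.4% in the other pair. With total counts, 2 were higher and 3 lower in both. The spermatogenesis Argonautes alg-3 and alg-4 were at 1085.4 and 1184 CPM in N2 males and at 0.143 and 0.161 CPM in N2 oogenic germlines. They passed the filter only through the males, so any calls of theirs in these counts are not support. The gene wago-4, which acts in inherited silencing, was called lower in both comparisons (-1.02 ± 0.17 and -1.43 ± 0.12). Of 8 Mutator proteins, which amplify small RNAs in granules next to P granules, 4 were called lower in N2 and 5 in the other pair, with none higher and medians of -0.65 and -0.84 against 0.23 and 0.03 for all genes. Of the 5 regulators of granule asymmetry in the embryo, mex-5 and mex-6 were called lower in both comparisons, by -1.16 and -2.22 in N2, and pptr-1, for a phosphatase subunit, was called higher, by 0.71 and 0.58. The kinase gene par-1 was called higher in N2 (0.66) and mbk-2 lower in the other pair (-0.35). Of 4 tested genes for autophagic removal of granules, 3 were called lower in each comparison, with medians of -1.02 and -0.88. With total counts, 8 of 8 Mutator genes and 4 of 4 autophagy genes were called lower in males in both comparisons, as were 4242 of 8574 genes in N2 and 4272 of 9244 in the other pair, and no asymmetry regulator was called higher.

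Sperm against male germline asks which transcripts remain once spermatogenesis is complete. All 7 autosomal members were called lower in him-8 sperm than in him-8 male germlines, where 30.6% of 8626 genes were called, 14.4% lower. Their median log2 fold change was -1.33 against -0.11 for all genes. In mes-3, the 4 members pgl-1, pgl-3, glh-1 and glh-4 were called lower and 3 were not called, where 29.4% of 10018 genes were called, 10.4% lower. The median over the 7 was -0.70 against -0.06. With total counts the calls over all genes moved from 1401 higher and 1242 lower to 992 and 1934 in him-8, and from 1900 and 1041 to 1647 and 1876 in mes-3, and each member kept its negative sign. The autosomal members called lower were then 7 in him-8 and 6 in mes-3, where glh-2 (-0.95) and deps-1 (-0.65) were added.

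In him-8, glh-1 fell from the 315 to 487 CPM given above for him-8 males to 82.9, 75.7 and 67.8 CPM in sperm. The log2 fold change was -2.06 ± 0.19 (adjusted p = 0.00101, edgeR). In mes-3, glh-1 fell from 309, 292 and 325 CPM in males to 97.5, 165 and 164 CPM in sperm, by -0.91 ± 0.20 (adjusted p = 0.00566). Sperm and germline libraries did not overlap in either strain.

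The scaffold gene pgl-1 retained 154, 147 and 174 CPM in him-8 sperm and 180, 186 and 174 CPM in mes-3 sperm, against 284, 369 and 362 CPM in mes-3 males. The fold changes were -0.60 ± 0.18 and -0.70 ± 0.14 (adjusted p = 0.0323 and 0.00313, edgeR). For pgl-3 the sperm values were 110, 155 and 158 CPM in him-8 and 224, 261 and 192 CPM in mes-3, against 319, 392 and 379 CPM in mes-3 males. These gave -1.09 ± 0.18 and -0.48 ± 0.14 (adjusted p = 0.00464 and 0.0256), and the mes-3 call was lost without mes-3 male replicate 2 or 3, or mes-3 sperm replicate 3, at -0.44 to -0.42. That call was also lost with RLE factors (-0.41). Both PGL genes were thus lower in sperm libraries than in any germline library of the same strain.

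Among the other helicases, glh-2 fell to 6.10, 7.62 and 24.3 CPM in him-8 sperm, from 12, 15 and 75 reads. The change was -1.94 ± 0.45 (adjusted p = 0.0152, edgeR) and -2.81 without him-8 sperm replicate 3, while in mes-3 the values were 23.7, 26.9 and 29.7 CPM in sperm and 52.7, 37.7 and 66.1 CPM in males, at -0.75 ± 0.30 (adjusted p = 0.0809). For glh-3, him-8 sperm held 21.9, 5.59 and 22.1 CPM (-1.37 ± 0.42, adjusted p = 0.0391) and mes-3 sperm 69.1, 51.9 and 38.2 CPM against 69.2, 77.1 and 77.2 CPM in mes-3 males (-0.29 ± 0.24, adjusted p = 0.395). The spread among him-8 sperm libraries was wide for both genes, with 11 reads of glh-3 in replicate 2.

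The gene glh-4 gave 99.2, 99.5 and 170 CPM in him-8 sperm (-0.77 ± 0.21, adjusted p = 0.0251, edgeR). In mes-3 it gave 169, 215 and 180 CPM in sperm against 351, 352 and 385 CPM in males (-0.74 ± 0.14, adjusted p = 0.00222). The deps-1 values were 33.6, 67.02 and 77.2 CPM in him-8 sperm (-1.33 ± 0.26, adjusted p = 0.00779), and in mes-3 they were 94.4, 144 and 142 CPM in sperm and 196, 209 and 196 CPM in males (-0.45 ± 0.18, adjusted p = 0.0841). By CPM, all 7 genes were lower in every sperm library than in every germline library of their strain, and the groups did not overlap for 47.5% of all genes in him-8 and 54.3% in mes-3.

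The him-8 calls of pgl-1, glh-3 and glh-4 were the least stable. The count of called members fell from 7 to 4 without him-8 male replicate 1, 3 or 4, each time through these 3 genes, whose fold changes were then -0.64 to -0.51, -1.38 to -1.34 and -0.77 to -0.72. The pgl-1 call was lost with any library except him-8 male replicate 2 left out, and the glh-4 call also without him-8 sperm replicate 1 or 2. The him-8 sperm libraries carry tag F and the him-8 male libraries tags D and E, so tag and tissue cannot be told apart there, while all mes-3 libraries carry tag F. Muscle markers were at 2017 to 5256 CPM in sperm against 26.5 to 87.6 CPM in mes-3 males and 110 to 3119.7 CPM in him-8 males, and intestine markers at 281 to 836 CPM in sperm against 10.4 to 518 CPM in those males. Their part in the lower values was not tested.

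**Figure D5:**
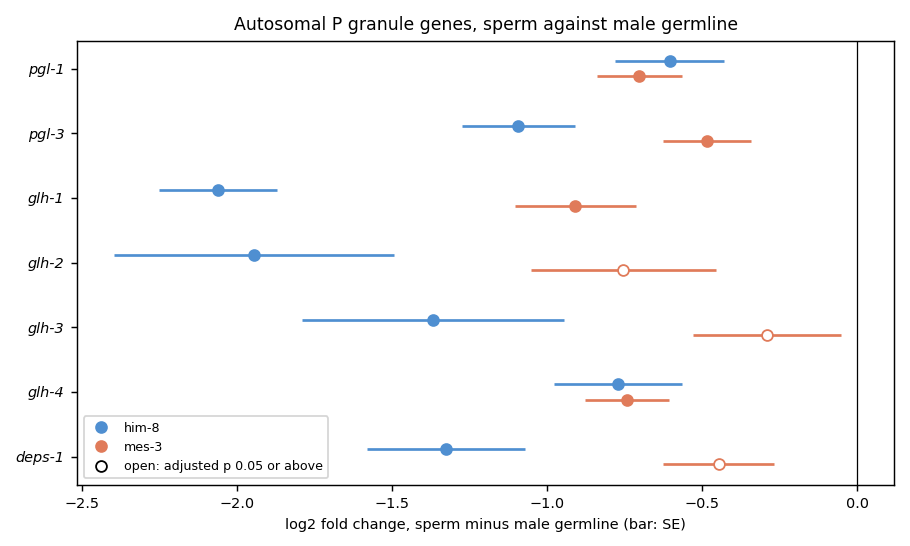
Log2 fold change (sperm minus male germline) of the 7 autosomal members in him-8 (blue) and mes-3 (orange), with SE as bars and open symbols for adjusted p of 0.05 or above. All points are below 0, and the 2 strains lie furthest apart at glh-1, glh-2 and glh-3.

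The MEG genes had few reads in sperm. In him-8 sperm, meg-1 had 0, 2 and 1 counts, meg-3 had 0, 0 and 1, and meg-4 had 1, 1 and 0. In mes-3 sperm, meg-1 had 7, 1 and 1 counts, meg-3 had 17, 1 and 1, and meg-4 had 3, 1 and 8. Summed over the group, meg-3 in mes-3 sperm was at 3.19 CPM (95% exact Poisson interval 1.92 to 4.99), of which replicate 1 gave 17 of 19 reads, against 83.0 CPM in N2 oogenic germlines.

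Whether the step from germline to sperm differed between strains was tested as an interaction over the 4 groups. The difference (mes-3 change minus him-8 change) was called for glh-1, at 1.20 ± 0.29 (adjusted p = 0.0365, edgeR), where 2.75% of 10129 genes were called, 2.15% higher. It was 0.65 ± 0.24 for pgl-3, 1.22 ± 0.55 for glh-2, 1.13 ± 0.48 for glh-3 and 0.92 ± 0.34 for deps-1, none of them called (adjusted p from 0.15 to 0.233). It was -0.05 ± 0.23 for pgl-1 and 0.07 ± 0.26 for glh-4. Without him-8 sperm replicate 3, the glh-2 difference was called, at 2.04 (adjusted p = 0.0254, edgeR). The glh-1 call was lost without any 1 of him-8 male replicate 1, the 3 mes-3 males, mes-3 sperm replicates 2 and 3, and him-8 sperm replicates 2 and 3, with values of 1.06 to 1.25. Only the him-8 side of this difference crosses tags, so the strain and the tag cannot be told apart.

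Males lacking zygotic mes-3, a gene for a partner of the histone methyltransferase MES-2, were compared with him-8 males. The single member called was glh-1, lower in mes-3 by -0.56 ± 0.15 (adjusted p = 0.0229, edgeR), with 309, 292 and 325 CPM against 487, 315, 369 and 413 CPM, so that the groups overlapped. In that comparison 28.0% of 8930 genes were called, 15.8% lower, and with total counts the split moved from 1092 and 1412 to 1710 and 989. The glh-1 call was lost with total counts (-0.36, adjusted p = 0.117) and without mes-3 male replicate 1 (-0.59), 2 (-0.53) or 3 (-0.61).

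With TMM factors and all libraries, the other autosomal members were not called. With total counts glh-3 was called higher (0.49, adjusted p = 0.0348, edgeR). The values of glh-3 and glh-4 in mes-3 males lay above all him-8 male values (46.1% of all genes did not overlap). The fold changes with TMM factors were 0.29 ± 0.12 (adjusted p = 0.110, edgeR) and 0.28 ± 0.14 (adjusted p = 0.156). The remaining changes were -0.03 ± 0.16 for pgl-1, -0.25 ± 0.14 for pgl-3, -0.41 ± 0.23 for glh-2 and -0.08 ± 0.11 for deps-1. Leaving out him-8 male replicate 2, the library rich in muscle RNA, brought pgl-3 to -0.34 and into the calls (adjusted p = 0.036), and the count to 2. All mes-3 male libraries carry tag F and the him-8 males tags D and E, so genotype and tag cannot be told apart.

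The MEG genes stayed near 0 in mes-3 males. The counts were 0, 34 and 1 for meg-1, 0, 0 and 0 for meg-3, and 0, 1 and 4 for meg-4. At 3 counts over the group, meg-3 was at least 705-fold below N2 oogenic germlines. The 34 reads of meg-1 in replicate 2 amounted to 4.53 CPM, against 147 CPM in the lowest oogenic library.

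Sperm of the 2 strains, which share tag F, gave no called member in edgeR's test, and 3 had an unadjusted p under 0.05. DESeq2 also called 0. Over all 8424 genes 10.3% were called, and with total counts the split moved from 271 and 594 to 463 and 270. The largest value was that of glh-3, at 1.42 ± 0.49 (adjusted p = 0.0894, edgeR), followed by glh-2 at 0.83 ± 0.59, deps-1 at 0.83 ± 0.32 and glh-1 at 0.64 ± 0.27, and the last of these was called with total counts (0.92, adjusted p = 0.0482). By CPM, all mes-3 sperm values of pgl-3, glh-1, glh-3 and deps-1 lay above all him-8 sperm values, while 32.3% of all genes did not overlap. Changes were -0.09 ± 0.19 for pgl-1, 0.40 ± 0.22 for pgl-3 and 0.35 ± 0.23 for glh-4. The spermatogenesis markers summed to 4447 to 5053 CPM in mes-3 sperm and to 7030 to 8002 CPM in him-8 sperm. In the same order, intestine markers summed to 759 to 836 and 281 to 754 CPM, and muscle markers to 2348 to 4415 and 2017 to 5256 CPM. The part of these marker differences in the sperm values and in the interaction was not tested.

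The offspring germlines were all mes-3; fem-2, and the groups differed in whether the father had mes-3 function. None of the 10 members was called in edgeR's test, and 4 had an unadjusted p under 0.05, while DESeq2 called 0. Over all 11962 genes 0 were called by edgeR, with 1244 at an unadjusted p under 0.05, and DESeq2 called 99 higher and 16 lower.

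The MEG genes had higher values in M+P-, none of them called. For meg-3 the CPM were 106 and 105 in M+P- against 78.2 and 43.4 in M+P+, a change of 0.75 ± 0.26 (adjusted p = 0.369, edgeR). For meg-1 they were 276 and 234.8 against 212 and 153 (0.44 ± 0.17, adjusted p = 0.416), and for meg-4 46.3 and 40.0 against 33.3 and 33.7 (0.32 ± 0.29, adjusted p = 0.759). The groups did not overlap for any of the 3, as was the case for 42.2% of all genes tested. The median over all 1430 X-linked genes tested was 0.46, against -0.02 for autosomal genes. Without M+P+ replicate 1, meg-1 (0.72) and meg-3 (1.27) were called. The oogenesis markers summed to 6243 and 6970 CPM in M+P- against 7349 and 7316 CPM in M+P+, the muscle markers to 244 and 115 against 111 and 90.4 CPM, and the spermatogenesis markers to 44.7 to 60.4 CPM in the 4 libraries, and their part in the offspring values was not tested.

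The autosomal members moved little or the other way. For deps-1 the values were 263 and 297 CPM in M+P- against 330 and 366 in M+P+ (-0.35 ± 0.14, adjusted p = 0.426, edgeR). For pgl-3 they were 263 and 315 against 348 and 366 CPM (-0.34 ± 0.15, adjusted p = 0.453), and for glh-1 271 and 266 against 297 and 343 CPM (-0.29 ± 0.14, adjusted p = 0.486). Values of pgl-1 overlapped, at 471 and 539 against 521 and 560 CPM, with a change of -0.14, as did those of glh-2, glh-3 and glh-4, with changes from -0.06 to 0.11. Without M+P- replicate 2, pgl-3 was called (-0.51, adjusted p = 0.0364). The glh-2 to glh-1 ratio was 0.494 and 0.509 in M+P- and 0.350 and 0.407 in M+P+.

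The control strains differed little in these genes. Between him-8 and N2 males, 0 of the 7 members tested were called by edgeR or DESeq2 and 0 had an unadjusted p under 0.05, where 0 of 8303 genes were called by edgeR, 232 had an unadjusted p under 0.05 and DESeq2 called 24 in all, 2 higher and 22 lower. The members' changes ran from 0.0014 for glh-2 to 0.18 for pgl-3, with SE of 0.15 to 0.22. Between fem-2 and N2 oogenic germlines, 0 members were called by either tool and 1, pgl-3, had an unadjusted p under 0.05, where 0.165% of 7874 genes were called. That gene was at 0.23 ± 0.10, and the others ran from -0.13 to 0.13. By CPM the strains did not overlap for pgl-1, glh-3 and meg-3, as for 9.28% of all genes. The pgl-1 to pgl-3 ratio was 1.02 to 1.14 in fem-2 and 1.27 to 1.36 in N2. The comparisons described above share the him-8 male, N2 oogenic and other control libraries, so they are not independent of one another.

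Across the 9 group means of log2(CPM + 1), the members fell into patterns that are given as a description, since the groups share tissues and libraries. The MEG genes followed one another most closely, with Pearson correlations of 0.98 to 0.99, and pgl-1, glh-2 and deps-1 ran together at 0.96 to 0.98. The glh-4 pattern was the least like the MEG genes, at 0.02 to 0.08. Of 7286 genes with a mean of at least 10 CPM, the pattern of pgl-1 was most like those of riok-1, hrpf-1 and fnta-1 (0.994 to 0.998), and that of deps-1 most like W03F9.1, egc-2 and vdac-1 (0.995 to 0.996). For glh-1 the nearest were hip-1, mrpl-58 and eif-2gamma (0.98 to 0.99), for glh-4 sod-2, pab-1 and slc-30A5 (0.94 to 0.97), and for meg-3 F08F3.6, R04D3.3 and rab-7 (0.996 to 0.997).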

How the data were processed

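RNA was measured in 25 libraries of 9 groups. Per the labels and the study's methods, ribosomal RNA was depleted from total RNA, TopHat2 aligned single-end reads to the WS220 transcriptome and HTSeq counted them. The counts deposited are raw, for 45461 identifiers. The strand setting is not given, reads outside genes made up 3.55% to 18.8% of a library, and the summary lines were left out. The authors also deposited RPKM, which they averaged over a group. Transcript lengths were recovered from these and the counts, and RPKM was then recomputed per library. The oogenic RPKM column was not used, since which libraries it averages is not given. The authors' DESeq2 fold changes were not used.

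Gene counts were tested in R 4.3.3 with edgeR 4.0.16 (quasi-likelihood F test, TMM factors, filterByExpr, Benjamini-Hochberg adjusted p under 0.05, only the groups compared, no covariates) after a test on simulated data. Alternatives were DESeq2 1.42.0, RLE factors, total counts, no count filter, a minimum absolute log2 fold change of 1, all 25 libraries in 1 fit, the replicate number as a block, him-8 male replicates 1 and 2 or 3 and 4 alone, and each library left out. The standard error is the fold change over the root of F. Ratios and the fits over both strains and tags were chosen after seeing the data. All 10 members are named, and of each list up to 4 called genes of largest change. The members and lists were chosen with earlier results of these data known. Symbols came from RefSeq, which matched 44080 identifiers, and exon overlaps from the Ensembl annotation of WBcel235. Since the counts use an older build, no coordinates are given. Counts at 0 were set at a floor of 3 over a group, and intervals are 95% exact Poisson. None of 24 replicate pairs agreed within sampling noise (chi-square over its degrees of freedom, 2.69 to 45.1). Tag A marks replicate 2 of N2 males and replicate 3 of both oogenic strains, B N2 oogenic 1 and 2, C fem-2 oogenic 1 and 2, D N2 male 1 and him-8 male 1 and 2, E him-8 male 3 and 4, F all mes-3 male and sperm libraries, and G the offspring.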

Additional observations from a re-analysis of the deposited data

Results flagged for a closer look

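Within the 4 him-8 male libraries, the only group large enough for a check of single libraries, replicate 2 lay apart from the others for deps-1, at 145.4 CPM against 193 to 200 CPM. Its muscle marker sum was also the highest of the 4. Replicate 4 lay apart for meg-4, at 0.428 CPM from 2 reads, because the other libraries had 0 reads. Of 12 measures checked in this way, about 1 in 20 would be expected to stand apart by chance.

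The change of glh-1 from male germline to sperm differed between mes-3 and him-8 in a direct test of the difference, at 1.20 on the log2 scale (adjusted p = 0.0365, edgeR), with the tag and the library dependence given above.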

How the results depend on the processing

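Of 1033 fold changes of members under the alternatives, 945 kept their side of the threshold, 56 lost their call, 30 gained one and 2 called values turned their sign. Results that were called under neither setting turned their sign a further 56 times, counted among the 945. With total counts, pgl-3 and glh-4 in N2 males against N2 oogenic germlines went to -0.39 and -0.027. A minimum absolute log2 fold change of 1 left 3 of 7 called members in N2 males against oogenic and 4 of 8 in him-8 against fem-2, of which the 3 MEG genes were all in N2 and all but glh-2 in the other pair. It left 5 of 7 in him-8 sperm and 0 of 4 in mes-3 sperm, each against male germlines, and 0 of 1 in mes-3 males. Without the count filter, 7 members in place of 4 were called in mes-3 sperm against males, of which 6 were autosomal and 1 was meg-3. With all 25 libraries in 1 fit the count rose from 1 to 2 in mes-3 males against him-8 males and from 0 to 3 in mes-3 against him-8 sperm, with meg-3 the addition in the former and 1 of the 3, beside glh-3 and deps-1, in the latter. In that fit meg-3 passed the count filter through the oogenic and offspring libraries, and it had at most 17 reads in a sperm library. In sperm the count was 1 with total counts, and against him-8 male replicates 3 and 4 only it was 2 in mes-3 males. The cause of these changes was not tested.

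With each library left out in turn, the count of called members was 5 to 7 in N2 males against oogenic, 7 to 9 in him-8 against fem-2, 4 to 7 in him-8 sperm, 3 to 4 in mes-3 sperm, 0 to 2 in mes-3 males, 0 to 2 in the offspring and 0 to 1 for the difference between strains, and 0 in the other comparisons. The first and second of these counts include the 3 MEG genes each time, so that 2 to 4 and 4 to 6 autosomal members were called. With 1 library left in an arm, its spread is assumed to be like that of the other group. The log2 ratio differences between the sexes stayed within -1.76 to -1.69 for glh-2 over glh-1 and -0.73 to -0.65 for pgl-1 over pgl-3. Same-numbered libraries deviated together with correlations from -0.58 to 0.21, so the numbers were not read as pairs. With the replicate block, the count went from 7 to 4 in him-8 sperm, from 1 to 0 in mes-3 males and from 0 to 2 in the offspring (meg-1 and meg-3). Values from 1 to 34 reads, as for the MEG genes in males and sperm and glh-3 in him-8 sperm replicate 2, are limited by depth.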
